A study of Mus musculus with 8 samples.

Results

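Genes of PDGF signalling and of pericytes were described across 2 regions of the mouse embryonic head mesenchyme, by gene symbol in a single table of 23420 genes. All 10 genes chosen by name had a row: the ligand genes Pdgfa, Pdgfb, Pdgfc and Pdgfd, the receptor genes Pdgfra and Pdgfrb, and the pericyte-associated genes Rgs5, Cspg4, Kcnj8 and Abcc9. The tissue came from wild type C57BL/6 embryos at E12.5 (embryonic day), without treatment or transgene in either group. The early migrating mesenchyme (EMM) and the supraorbital mesenchyme (SOM), which lies above the eye, were each represented by 4 RNA-seq libraries. Each library held tissue pooled from 4 to 5 embryos, after dispase digestion and removal of the surface ectoderm and brain. All values are normalized counts (reads of a gene divided by a size factor of the library) unless another scale is named, and ± is the SD with n = 4 libraries.

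Platelet-derived growth factors are secreted dimers that bind a pair of receptor tyrosine kinases. PDGFRA is the receptor of many mesenchymal and neural crest derived cells of the embryonic head, and PDGFRB is needed by pericytes, the cells that wrap small blood vessels, where PDGF-B from the endothelium recruits them. PDGFRB is also made by other mesenchymal cells of the embryo, so that neither receptor marks pericytes alone. RGS5, which shortens signalling of G protein coupled receptors, and the potassium channel formed by KCNJ8 and ABCC9 are more restricted to pericytes and smooth muscle, while CSPG4 (NG2) is a proteoglycan of pericytes and of other immature cells.

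Of the 10 genes, 7 were higher in EMM, 1 (Cspg4) was higher in SOM, and Pdgfa and Pdgfb did not pass the test. The test was limma over all 14249 genes that reached a normalized count of 10 in at least 4 libraries, with Benjamini-Hochberg adjusted p below 0.05. All 10 genes reached that level. Most of the transcriptome differed between these tissues: in the same fit 72.1% of the tested genes were called, 36.1% higher in EMM and 36% higher in SOM. The 7 genes higher in EMM were also those whose EMM and SOM libraries did not overlap, which held in that direction for 33.2% of the tested genes (66.1% in either direction). None of the 10 was higher in SOM without overlap, against 32.9% of the tested genes. Of these, Pdgfd, Rgs5, Kcnj8 and Abcc9 were at least 2-fold higher in EMM by the fitted difference, as were 11% of all tested genes, and none was at least 2-fold higher in SOM, against 5.19%. The median fitted log2 difference (SOM minus EMM) was -0.56 over the 10 genes and 0.01 over all tested genes.

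The promoters of Rgs5, Kcnj8 and Abcc9, the 3 genes with the largest differences, and of Pdgfc, the ligand gene with the highest level, show the sequence upstream of the start sites. Entries of RefSeq (GRCm38.p6) were matched for 8 of the 10 genes. Each sequence runs 5′ to 3′ on the gene's strand and ends at or upstream of the annotated start. Capitals mark a GC box (GGGCGG, read on either strand) or a CArG box, the motif bound by serum response factor. They lie at chr1:169655251-169655500 on the plus strand (Rgs5), chr6:142571615-142571864 on the minus strand (Kcnj8), chr6:142702316-142702524 on the minus strand (Abcc9) and chr3:81036166-81036415 on the plus strand (Pdgfc).
Rgs5: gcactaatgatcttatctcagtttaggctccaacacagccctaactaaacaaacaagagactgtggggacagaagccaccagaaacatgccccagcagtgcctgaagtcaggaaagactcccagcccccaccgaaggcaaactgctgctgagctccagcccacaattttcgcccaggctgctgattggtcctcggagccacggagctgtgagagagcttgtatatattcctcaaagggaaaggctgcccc
Kcnj8: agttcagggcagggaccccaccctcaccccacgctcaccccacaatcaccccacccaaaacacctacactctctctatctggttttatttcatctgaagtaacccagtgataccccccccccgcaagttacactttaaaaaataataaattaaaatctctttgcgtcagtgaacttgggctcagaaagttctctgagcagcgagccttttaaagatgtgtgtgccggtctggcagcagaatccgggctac
Abcc9: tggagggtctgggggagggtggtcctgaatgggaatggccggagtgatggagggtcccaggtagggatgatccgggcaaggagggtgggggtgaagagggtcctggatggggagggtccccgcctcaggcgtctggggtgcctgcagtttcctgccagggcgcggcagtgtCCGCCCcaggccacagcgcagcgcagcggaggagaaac
Pdgfc: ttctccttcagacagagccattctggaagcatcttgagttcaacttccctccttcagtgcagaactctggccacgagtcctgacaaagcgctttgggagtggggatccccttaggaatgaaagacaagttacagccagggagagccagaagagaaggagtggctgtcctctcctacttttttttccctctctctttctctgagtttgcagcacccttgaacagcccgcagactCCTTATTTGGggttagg

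A CArG box was found for 1 of the 8 genes, Pdgfc, beginning 17 bases upstream of the start, and in 1.47% of all 32851 promoter windows of 250 bases. The GC box was found for 3 of the 8 genes, Abcc9, Cspg4 and Pdgfa, and in 32.7% of all windows. The 8 genes had 9 windows, the additional 1 being of Pdgfa, and each Pdgfa window held a GC box. Counts here are of genes, while the background is of windows. The motif TATAAA was found for Pdgfd (12.4% of all windows). GTGGGAA and TGTTTAC, the letters bound by RBPJ and by forkhead factors, were found for none of the 8 (5.42% and 3.17% of all windows). All motifs were searched on both strands and no matches in these promoters overlapped. A match is a description of the letters, not evidence of a bound site. The window of 250 bases of Abcc9 had 66.8% G and C, and that of Kcnj8 49.2%, against a median of 52.4% over all promoters. Kcnj8 (chromosome 6, 142564837 to 142571614) and Abcc9 (chromosome 6, 142587862 to 142702315) lie 16.2 kb apart on the minus strand of GRCm38.

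**Figure D1:**
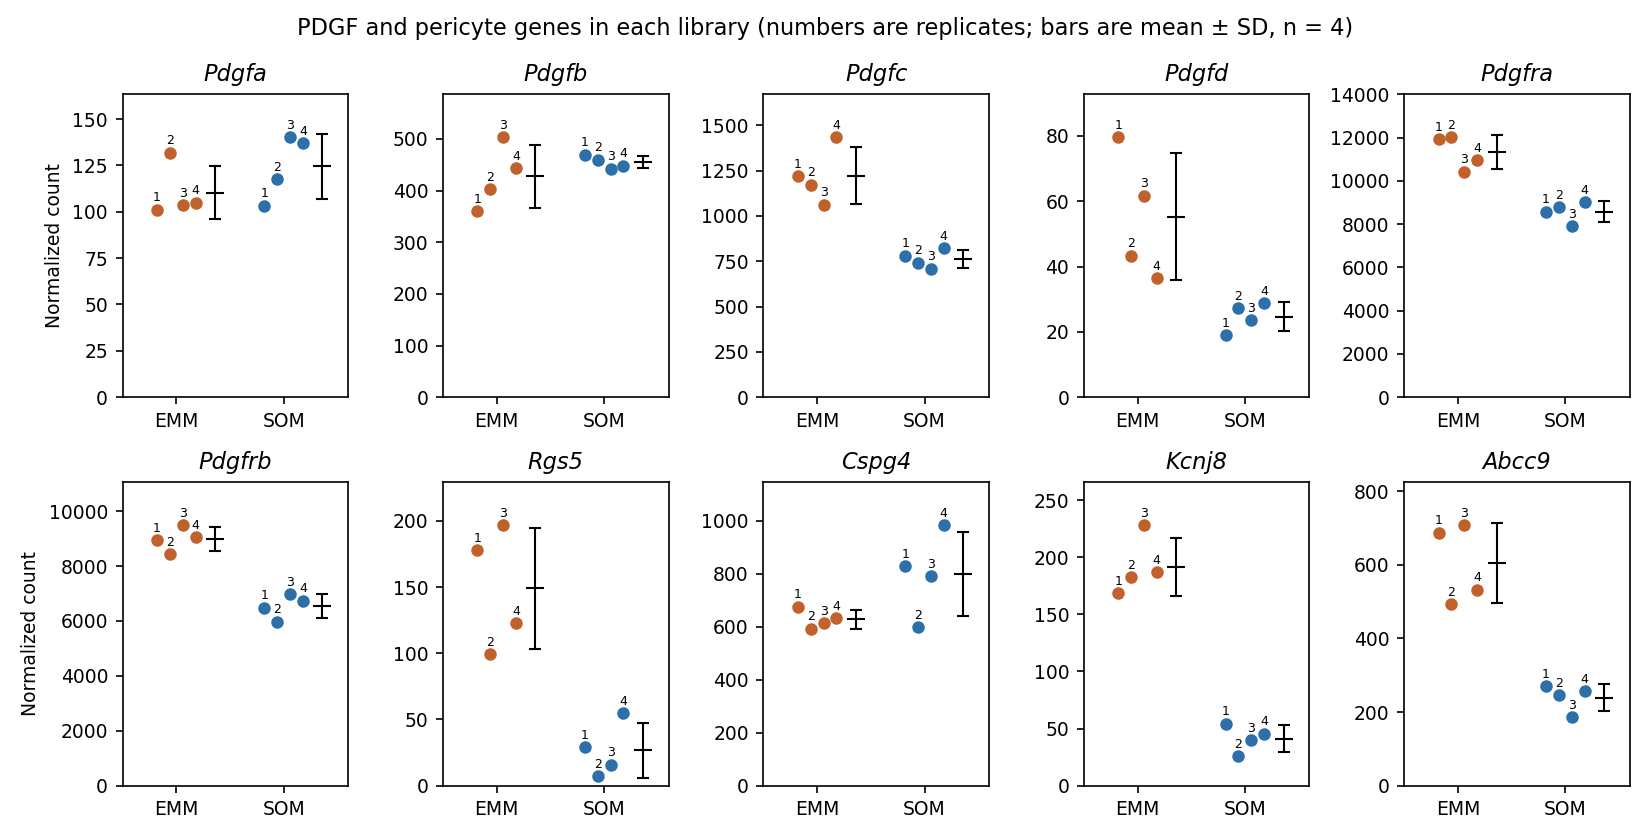
Normalized counts of the 10 genes (vertical axes, each starting at 0) in 4 EMM and 4 SOM libraries, with replicate numbers beside the points and the mean ± SD at the right of each group. The groups do not overlap for 7 genes, all higher in EMM, and overlap for Pdgfa, Pdgfb and Cspg4.

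Among the ligands, Pdgfc and Pdgfd were higher in EMM. Pdgfc, whose product binds mainly PDGFRA and must be cleaved outside the cell to become active, stood at 1218, 1173, 1062 and 1437 in EMM replicates 1 to 4. In SOM replicates 1 to 4 it stood at 781, 742, 708 and 822. Every EMM library was above every SOM library, and the lowest EMM library was 1.29 times the highest SOM library. The fitted difference was -0.67 (SE 0.08, limma adjusted p = 2.66e-06), and the group means differed 1.602-fold.

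Pdgfd, the other ligand that needs proteolytic activation and one that acts through PDGFRB, was the lowest ligand in both regions. It stood at 79.7, 43.4, 61.7 and 36.4 in EMM and at 18.9, 27.3, 23.6 and 28.7 in SOM. The groups did not overlap, although the EMM libraries spread 36.4 to 79.7. These values rest on 188 reads in all EMM libraries and 134 in all SOM libraries. The fitted log2 difference was -1.09 (SE 0.24, limma adjusted p = 0.000722), a 2.24-fold difference of the means.

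Pdgfa and Pdgfb, the classical ligands, overlapped between the regions. Pdgfb, the ligand that endothelium presents to pericytes, stood at 360, 403, 504 and 443 in EMM and at 470, 460, 442 and 448 in SOM. The SOM libraries lay inside the EMM range and were closer to one another, with a coefficient of variation of 2.68% against 14.3%. The fitted difference was 0.10 with a 95% interval of -0.09 to 0.29 (limma adjusted p = 0.325), so that a SOM level between 0.939 and 1.22 times that of EMM was compatible with the data. Pdgfa, which acts on PDGFRA, stood at 101, 132, 103 and 105 in EMM and at 103, 118, 140 and 137 in SOM. Its fitted difference was 0.17 with an interval of -0.12 to 0.46 (limma adjusted p = 0.266). A p above the threshold does not show that these levels were equal.

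Both receptors were abundant in every library and moderately higher in EMM. Pdgfra stood at 11914, 12030, 10425 and 10961 in EMM and at 8578, 8778, 7913 and 9018 in SOM. Each EMM library was above each SOM library, with 1.16 times between the closest ones. The means differed 1.32-fold (fitted log2 difference -0.40, SE 0.06, limma adjusted p = 7.74e-06). Pdgfrb stood at 8941, 8430, 9483 and 9053 in EMM and at 6489, 5976, 6966 and 6744 in SOM. Its groups were likewise apart, and the means differed 1.37-fold (fitted log2 difference -0.46, SE 0.05, limma adjusted p = 1.28e-06). The ratio of Pdgfra to Pdgfrb within a library ran from 1.10 to 1.43 in EMM and from 1.14 to 1.47 in SOM. The ranges overlapped and the log2 ratio differed by 0.06 (exact two-sided permutation test, p = 0.629, adjusted p = 0.629 over 5 ratios). That difference changed sign, to -0.01, without EMM replicate 3.

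**Figure D2:**
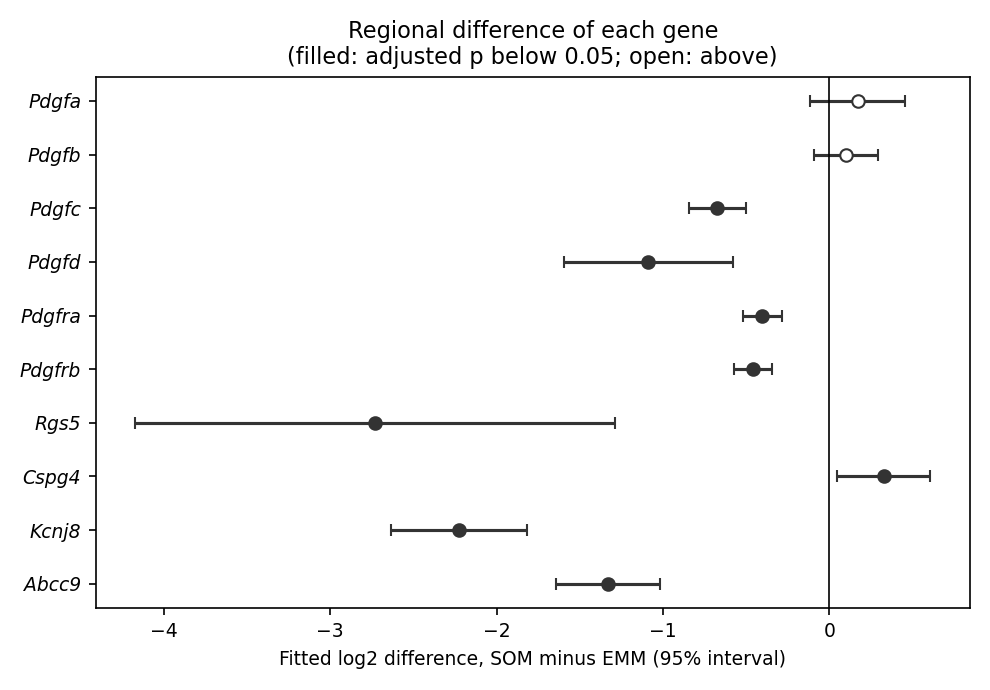
Fitted log2 difference between SOM and EMM (horizontal axis, negative is higher in EMM) for each gene, with its 95% interval. Filled points passed an adjusted p of 0.05. Rgs5 had the widest interval, from -4.17 to -1.29, and the intervals of Pdgfa and Pdgfb include 0.

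The 3 genes more restricted to mural cells, the pericytes and smooth muscle cells of vessel walls, had the largest differences. Rgs5 stood at 178, 99.4, 197 and 123 in EMM replicates 1 to 4 and at 29.0, 7.0, 15.96 and 54.8 in SOM replicates 1 to 4. All EMM libraries were above all SOM libraries, but the SOM libraries spread widely, with a coefficient of variation of 77.9%. SOM replicate 2 held 10 reads of Rgs5 and SOM replicate 4 held 82. The fitted log2 difference was -2.73 (SE 0.60, limma adjusted p = 0.00513), and the means were 149 ± 45.6 and 26.7 ± 20.8. Without SOM replicate 4 the fitted difference was -3.18, and without SOM replicate 2 it was -2.25.

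Kcnj8, the pore subunit Kir6.1 of the vascular ATP-sensitive potassium channel, stood at 169, 183, 228 and 187 in EMM. In SOM it stood at 54.1, 25.9, 39.6 and 45.4. The lowest EMM library was 3.11 times the highest SOM library, the widest gap of the 10 genes. The fitted log2 difference was -2.23 (SE 0.19, limma adjusted p = 5.54e-08). Abcc9, which encodes the regulatory subunit SUR2 of the same channel, stood at 687, 493, 707 and 532 in EMM and at 269, 245, 186 and 256 in SOM. Its groups were apart as well (fitted log2 difference -1.33, SE 0.14, limma adjusted p = 4.97e-06), with means 2.53-fold apart.

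The pore and regulatory subunits did not differ by the same amount. The ratio of Kcnj8 to Abcc9 was 0.246, 0.370, 0.322 and 0.352 in EMM and 0.201, 0.106, 0.213 and 0.177 in SOM, without overlap. The log2 ratio was lower in SOM by -0.90 (exact two-sided permutation test, p = 0.0286, adjusted p = 0.0357 over 5 ratios, n = 4). This p is the smallest that 4 against 4 libraries can give. The other genes of this channel family, Kcnj11 and Abcc8, held 16 and 12 reads over all EMM libraries and 26 and 30 over all SOM libraries, below the level tested.

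Cspg4 went the other way. It stood at 677, 593, 614 and 633 in EMM and at 829, 599, 790 and 983 in SOM. SOM replicate 2 lay inside the EMM range and the other 3 SOM libraries above it. The fitted log2 difference was 0.33 (SE 0.13, limma adjusted p = 0.0372). Leaving out any of EMM replicates 2, 3 and 4 or of SOM replicates 1, 3 and 4 ended the call, with limma adjusted p between 0.0631 and 0.0930, and when EMM replicates 2 and 3 were left out together with SOM replicate 4 (0.281). Over all its alternatives the adjusted p ran from 0.000119 to 0.281.

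To set levels of different genes side by side, counts were divided by length, here per kb of annotated exon. The ratios of Pdgfra to Pdgfrb and of Kcnj8 to Abcc9 above are of counts not scaled to length and are compared only between regions. On this scale Pdgfrb and Pdgfra were the highest in both regions. By count Pdgfra was above Pdgfrb in every library. The order of these receptors thus rests on their annotated exon lengths, 10.0 kb for Pdgfra and 5.48 kb for Pdgfrb, which count every annotated exon. Pdgfrb stood at 1639 ± 79.0 per kb in EMM and 1195 ± 77.7 in SOM, and Pdgfra at 1131 ± 77.0 and 855 ± 47.3. Pdgfc came next (240 ± 30.9 in EMM and 149.98 ± 9.65 in SOM), followed by Pdgfb (103 ± 14.7 and 109 ± 2.93). These 4 places were the same in both regions, and neighbours among these genes did not overlap. In EMM the order went on with Kcnj8, Abcc9, Cspg4, Pdgfa, Rgs5 and Pdgfd. There Pdgfb overlapped with Kcnj8, Kcnj8 with Abcc9, Pdgfa with Rgs5, and Rgs5 with Pdgfd.

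In SOM the order went on with Cspg4, Pdgfa, Abcc9, Kcnj8, Pdgfd and Rgs5, and only Pdgfd and Rgs5 overlapped among neighbours. Kcnj8 thus stood in place 5 in EMM and place 8 in SOM, and Cspg4 in place 7 and place 5. Rgs5 was the lowest gene in SOM at 5.87 ± 4.57 per kb, against 32.8 ± 10.0 in EMM. Among the ligands, Pdgfc made up 54.6% to 65.1% of the summed ligand level per kb in EMM libraries and 46.7% to 50.2% in SOM libraries. Pdgfb made up 22.5% to 31.7% in EMM and 33.4% to 37.0% in SOM. The summed receptor level was 6.33 to 7.35 times the summed ligand level in EMM and 6.50 to 6.92 times in SOM, and these ranges overlapped.

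**Figure D3:**
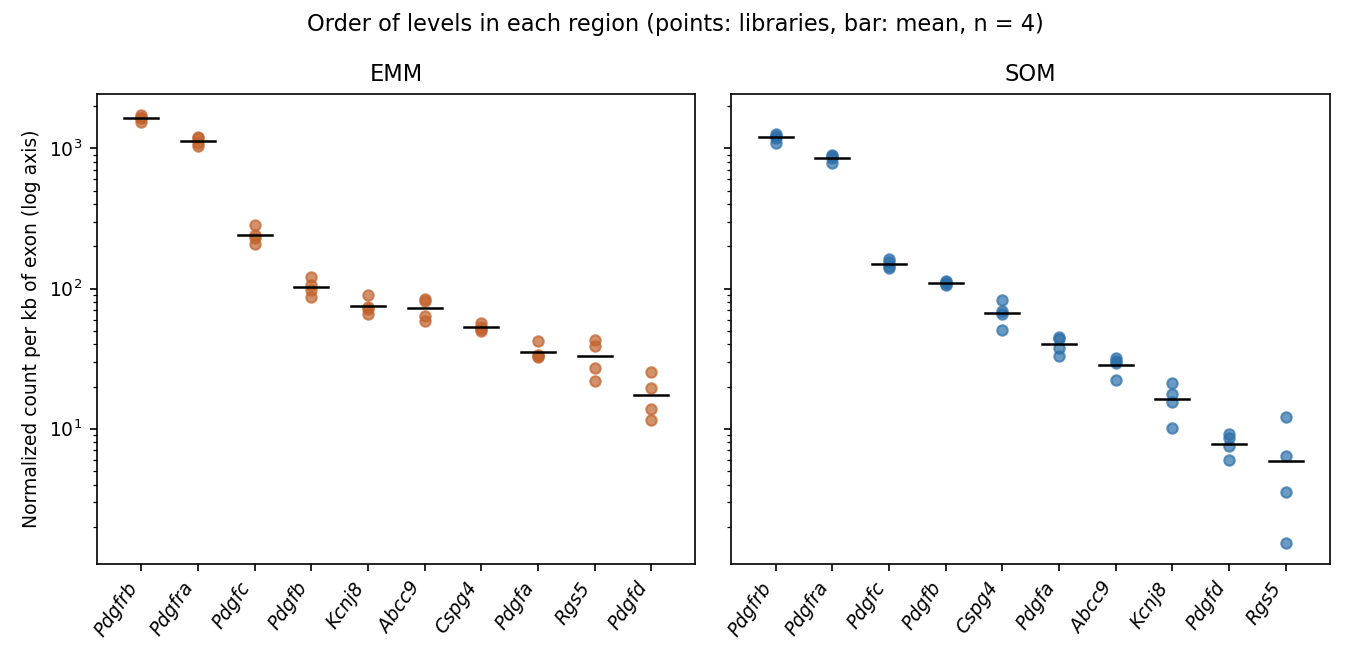
Normalized count per kb of annotated exon (vertical log axis) of the 10 genes, ordered by their mean within each region, with points for libraries and bars for means. The first 4 places are held by the same genes in both regions, whereas Rgs5 is last in SOM and Pdgfd last in EMM.

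Rgs5 and Pdgfb were next read against an endothelial gene of the same library, since mural cells line endothelial tubes. These ratios are of counts not scaled to length, so that their size is set partly by gene length and only their difference between the regions is compared. Cdh5, which encodes the cadherin of endothelial junctions, stood at 5326 ± 671 in EMM and 4535 ± 252 in SOM (fitted log2 difference -0.23, SE 0.08, limma adjusted p = 0.0205). Rgs5 amounted to 3.17%, 2.15%, 3.21% and 2.47% of Cdh5 in EMM and to 0.634%, 0.168%, 0.344% and 1.15% in SOM. The groups did not overlap, and the log2 ratio differed by -2.50 (exact two-sided permutation test, p = 0.0286, adjusted p = 0.0357, n = 4). Rgs5 also fell relative to Pdgfrb, from 1.18% to 2.07% of its count in EMM to 0.117% to 0.812% in SOM. That log2 ratio differed by -2.27 (exact permutation test, p = 0.0286, adjusted p = 0.0357).

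The ratio of Pdgfb to Cdh5 was higher in SOM, while Pdgfb itself did not pass the test and Cdh5 was lower in SOM. Pdgfb amounted to 6.42%, 8.72%, 8.23% and 8.94% of Cdh5 in EMM and to 10.3%, 11.01%, 9.54% and 9.42% in SOM. The SOM libraries were all higher, by 0.33 on the log2 scale (exact permutation test, p = 0.0286, adjusted p = 0.0357, n = 4). The direction of the Pdgfb ratio depended on the endothelial gene chosen. With each of the 16 listed endothelial genes as the reference in turn, a choice made after the data were seen, the ratio was higher in SOM for 12 and higher in EMM for 4 (Pecam1, Sox17, Sox18 and Robo4), and its log2 difference ran from -0.71 to 1.59. Against Pecam1, which encodes an adhesion molecule of endothelial junctions, it was -0.14 (exact permutation test, p = 0.2, adjusted p = 0.25), and against the sum of the 16 genes 0.47 (p = 0.0286, adjusted p = 0.0357). The ratio of Rgs5 was higher in EMM for all 16 references, from -3.54 to -1.24 on the log2 scale, and its groups overlapped for 2 of them, Tek and Emcn. In pooled tissue, fewer cells of a type and less RNA per cell cannot be told apart, so these ratios do not count pericytes or vessels. The calls on the ratios of Rgs5 to Cdh5, Rgs5 to Pdgfrb and Kcnj8 to Abcc9 were lost when any EMM library or SOM replicate 2 was left out, and that of Pdgfb to Cdh5 when any of the 8 libraries was left out (exact permutation test, adjusted p 0.0714 or higher).

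**Figure D4:**
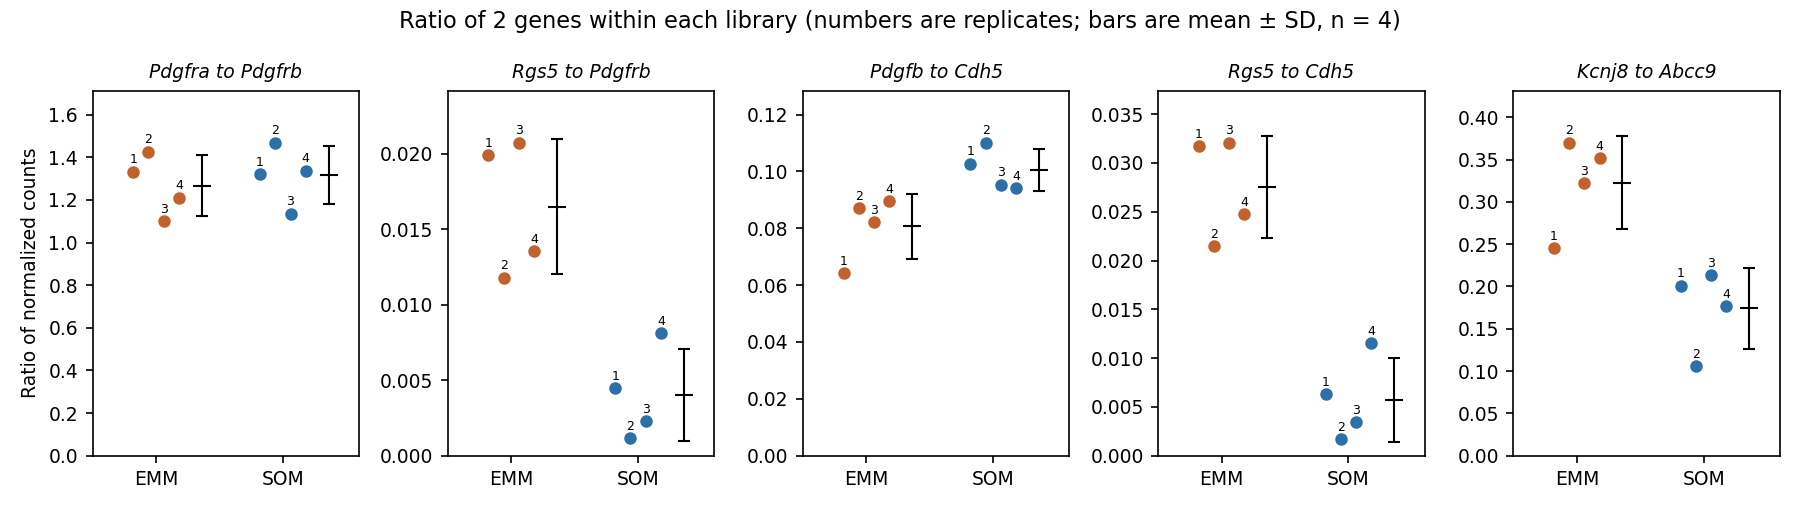
Ratio of the normalized counts of 2 genes within each library (vertical axes, each starting at 0), with replicate numbers and the mean ± SD of 4 libraries at the right of each group. The ratios of Rgs5 and Kcnj8 are lower in SOM, that of Pdgfb to Cdh5 is higher in SOM (-0.14 with Pecam1 in place of Cdh5), and the ratio of the receptors overlaps.

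Other genes marking pericytes and mural cells were mostly higher in EMM. Of 18 listed, 16 reached the tested level, of which 11 were higher in EMM and 2 in SOM, 3 missing the threshold (median difference -0.72). For this list and each list below, the share over all tested genes was 36.1% higher in EMM and 36% higher in SOM. Anpep, a peptidase on the pericyte surface, stood at 1492 ± 132 in EMM and 853 ± 47.9 in SOM (-0.80 on the log2 scale). Steap4, a metalloreductase gene, was at 59.2 ± 15.6 and 18.8 ± 0.968, and Gucy1b3, which encodes a subunit of the nitric oxide receptor, at 192 ± 26.0 and 94.4 ± 16.1. The 2 genes higher in SOM were Mcam, which encodes an adhesion molecule also of endothelium, at 1155 ± 220 in EMM and 1580 ± 135 in SOM, and Cox4i2, a cytochrome c oxidase subunit gene, at 44.6 ± 13.6 and 71.4 ± 11.2. Higd1b, a marker of mature pericytes, had 0 reads in EMM and 2 in SOM.

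Further mural genes were named after their values were seen. Vtn, which encodes vitronectin, stood at 3081, 2827, 4137 and 3176 in EMM and at 767, 269, 444 and 954 in SOM (-2.59). Foxf2, which encodes a forkhead factor of brain pericytes, was at 435 ± 133 and 117 ± 36.7 (-1.89). The receptor gene Notch3 differed little, at 4939 ± 242 and 4399 ± 413 (-0.17, limma adjusted p = 0.0209). Among the SOM libraries, Vtn and Rgs5 had the same order, lowest in replicate 2, then 3, then 1, and highest in replicate 4. Among the EMM libraries their orders differed. Both were lowest in replicate 2 and highest in replicate 3, but Vtn was higher in replicate 4 than in replicate 1, and Rgs5 lower.

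Levels of vessel markers varied between libraries of a group. EMM replicate 2 was the lowest of its group for 13 of 16 endothelial genes and 9 of 16 mural genes, and EMM replicate 3 the highest for 13 and 9. SOM replicate 2 was the lowest of its group for 11 endothelial and 10 mural genes. The summed endothelial genes ran from 24382 in EMM replicate 2 to 31054 in EMM replicate 3, and from 19358 in SOM replicate 2 to 22158 in SOM replicate 4. Rgs5 was lowest and highest in those same libraries of each group. The part of this variation in the results on Rgs5 was not tested beyond the ratios to endothelial genes above.

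All 10 contractile genes of smooth muscle, another mural cell type, were higher in EMM, with a median of -1.87. Acta2, the smooth muscle actin gene, had a fitted difference of -4.14, Tagln one of -3.24 and Myl9 one of -1.75. Their sum ran from 79789 to 89005 in EMM libraries and from 15630 to 17717 in SOM libraries. Of 16 endothelial genes, EMM had the higher level of 10 and SOM of 4, while 2 missed the threshold (median -0.32). The angiopoietin receptor gene Tek (-1.44), the sialomucin gene Emcn (-1.49) and Egfl7 (-0.53) were higher in EMM. Sox17 (0.61) and Sox18 (0.82), transcription factor genes of endothelium, and the receptor gene Robo4 (0.40) were higher in SOM. The part of smooth muscle and endothelial content in the differences of Rgs5, Kcnj8 and Abcc9 was not tested further.

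Other signals that pass between endothelium and mural cells were mostly higher in EMM. Of 15 tested, EMM had the higher level of 11 and SOM of 3, while 1 missed the threshold (median -0.83). The ephrin gene Efnb2 stood at 6949 ± 185 in EMM and 1661 ± 148 in SOM (-2.07), the Notch ligand gene Jag1 at 1452 ± 115 and 391 ± 70.5 (-1.90), and the endothelin gene Edn1 at 188 ± 30.7 and 48.7 ± 5.85 (-1.92). The Notch ligand gene Dll4 (2.11), Hbegf (0.45) and Vegfa (0.32) were the 3 higher in SOM. Angpt1, the ligand of Tek made by mural and mesenchymal cells, was named after its values were seen and stood at 1767 ± 336 and 276 ± 28.3 (-2.66).

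Of 36 further genes of PDGF signalling, all tested, EMM had the higher level of 23 and SOM of 7, while 6 missed the threshold (median -0.25). Over all tested genes 36.1% were higher in EMM and 36% in SOM. Pcsk5, a proprotein convertase gene, stood at 4914 ± 381 in EMM and 2128 ± 121 in SOM (-1.21). Of the genes acting downstream of the receptors, Stat3 (-1.07) and the kinase gene Yes1 (-0.87) were higher in EMM. Pik3r2, a regulatory subunit gene of PI 3-kinase (0.47), the phospholipase gene Plcg1 (0.32) and Ptpn2, a phosphatase that acts on the receptors (0.33), were higher in SOM. Grb2, the adaptor gene, was at 2402 ± 85.3 and 2298 ± 44.5 and did not pass (limma adjusted p = 0.231).

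Grb2 and the next 4 genes were named after their values were seen. Plat, which encodes the tissue plasminogen activator that cleaves PDGF-C into its active form, stood at 3254 ± 186 in EMM and 717 ± 121 in SOM. Its fitted log2 difference was -2.19 (SE 0.10, limma adjusted p = 6.29e-09), in the same direction as that of Pdgfc. Plau, which encodes urokinase, the activator of PDGF-D, stood at 420 ± 27.3 and 371 ± 32.1 and did not pass (limma adjusted p = 0.0578). Pdgfrl, a receptor-like gene without a kinase, was at 1331 ± 150 and 355 ± 68.1 (-1.91), and Lrp1, a co-receptor of PDGFRB, differed by -0.76.

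Of 14 nearest relatives of the 10 genes, 11 were tested, with 7 higher in EMM, 3 in SOM and 1 not passing. Csf1r, which encodes a receptor of the same class as PDGFRA and PDGFRB, was higher in EMM (-2.25). It is also a macrophage marker, and all 8 macrophage markers listed were higher in EMM. Also higher in EMM were the RGS genes Rgs8 (-2.39) and Rgs16 (-1.51). The VEGF genes Vegfb (0.80) and Figf (0.92), and Rgs2 (0.28), were higher in SOM. Rgs4, which lies 45.7 kb from Rgs5 on chromosome 1 and was named after its values were seen, stood at 128 ± 47.7 and 23.4 ± 12.6 (-2.46).

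Markers of other cells that can express these genes also differed between the regions. Oligodendrocyte progenitors express Pdgfra and Cspg4. Their 7 listed markers summed to between 1217 and 1482 in SOM libraries and at most 56.2 in EMM libraries. Of the 7, 4 were tested and higher in SOM. Olig2, Sox10 and Gpr17 reached at most 1.02, 6.13 and 8.08 in EMM, below the count of 10 needed. They were therefore tested only through SOM, and a call higher in SOM was fixed by that filter. The other was Ptprz1, at 27.7 ± 9.16 in EMM and 93.6 ± 17.0 in SOM. Olig2 had 1 read in EMM and 2881 in SOM, Sox10 had 14 and 2669, and Gpr17 had 23 and 1081. Olig1 had 0 and 5 reads and Nkx2-2 had 2 and 0, so that these defining markers were at or near 0 in both regions. The list thus does not identify oligodendrocyte progenitors in either region, and which cells held Olig2, Sox10 and Gpr17 was not tested. Without any 1 of the SOM libraries only 1 of the 4 genes reached the tested level, and it was higher in SOM. All 8 macrophage markers were higher in EMM, such as Adgre1 (-2.50), and their sum was 9816 to 12256 there and 2210 to 2619 in SOM. Of 6 megakaryocyte markers, which mark cells that store PDGF, 5 were tested. Pf4 was higher in EMM, at 825 ± 40.2 against 294 ± 34.4 in SOM, and the other 4 missed the threshold. The count was 2 higher in EMM with the replicate number as a block, and 2 were higher in SOM when EMM replicates 2 and 3 were left out with SOM replicate 4. Their part in the results on Cspg4, Pdgfra and the ligands was not tested.

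The dissected tissue carried the marks of mesenchyme in both regions. Of 8 general mesenchyme genes, 4 were higher in EMM, among them Col1a1 (-1.77), Col1a2 (-1.66) and Col3a1 (-1.18), and 4 higher in SOM, among them Twist2 (1.04), Twist1 (0.32) and Vim (0.24). Of 8 surface ectoderm markers, Krt8 (-2.89) and Cdh1 (-2.58) were higher in EMM and 6 did not pass. Of those 6, Krt14 (2.18), Grhl3 (1.52), Krt5 (1.34) and Trp63 (0.99) leaned toward SOM. Epcam (-0.29) leaned toward EMM, and Krt18 was at 0.003. The list median was 0.50, and the count higher in SOM, here 0, ran up to 2 over the alternatives. The sum of the 8 was 762 to 1014 in EMM and 244 to 453 in SOM, highest of all in EMM replicate 2. It rested largely on Krt8 and Cdh1, with EMM means of 333 and 331, so it does not rank the regions by surface ectoderm. Neither of these genes was highest of its group in EMM replicate 2, where they stood at 289 and 349. Over the EMM libraries Krt5 ran from 3.07 to 191.6 and Krt14 from 1.02 to 68.7. Among markers of brain and neurons, Stmn2 (3.26) and Tubb3 (1.195) were higher in SOM and Elavl3 (-2.30) was higher in EMM. Without any 1 of the EMM libraries, Elavl3 fell below the tested level, so that its call has no check by leaving out an EMM library. Below the tested level, Pax6, Sox1, Neurod1 and Dcx held 38, 23, 8 and 60 reads over the EMM libraries. Over the SOM libraries they held 8, 7, 1 and 18. Hes5 went the other way, with 29 reads in EMM and 74 in SOM. Leaving Elavl3 aside, these markers had no common direction. Like the summed surface ectoderm markers, Pdgfa was highest of its group in EMM replicate 2, at 132 against 101 to 105. The part of ectoderm or brain tissue in that value was not tested.

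Depth and annotation limit some of these values. The libraries held 12.7 to 22.4 M gene-assigned reads in EMM and 16.8 to 33.7 M in SOM. Of the 10 genes, 4 share annotated exonic bases with another gene (Pdgfa, Pdgfc, Pdgfra and Abcc9), and without strand such shared reads cannot be assigned to either gene. In the authors' deposited table, where positive values mean higher in EMM, the log2 fold change was 2.17 for Kcnj8, 1.33 for Abcc9 and 1.80 for Rgs5. The fitted differences here, of opposite sign, were -2.23, -1.33 and -2.73. For Rgs5 the deposited size was smaller and lay outside the -3.22 to -2.25 of all alternatives. The reason was not tested. The authors' deposited table also gave adjusted p = 0.294 for Pdgfa and adjusted p = 0.501 for Pdgfb.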

How the data were processed

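RNA-seq of 4 EMM and 4 SOM libraries was deposited as 1 table. Per the file headers and values, its 8 library columns give the deposited signal, a normalized count (reads over a library size factor). It also holds, as deposited by the authors, the log2 fold change, its standard error, the Wald score, the p-value and the adjusted p-value. The submitters' processing notes name bcl2fastq, STAR, DESeq2 and mm10. The annotation, counter and strand setting were not given in the sources used here. In each library 100% of the deposited values were whole multiples of 1 step within 1 ppm, so reads were recovered.

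Genes with at least 10 in at least 4 libraries (14249) were fitted as log2(normalized count + 1) with limma 3.58.1 in R 4.3.3 (trend, robust, no covariate). The added 1 lowers the fitted change of low genes. For Rgs5 the fit gave -2.73, and the deposited log2 fold change, positive for EMM, was 1.80. Which of these is nearer to the true size was not tested, so the fit is not taken as a lower bound. Pools were the replicates, so p-values measure the spread between pools. Alternatives used edgeR 4.0.16, DESeq2 1.42.0 and limma-voom on recovered reads, other scalings, filters and pseudocounts, and libraries left out. Log2 ratios of 2 genes in a library were tested by exact permutation. Lengths are the union of exons in GENCODE M21 (GRCm38). Tested on simulated data with 14139 genes run, the SOM against EMM fit recovered 77.8% of 1.5-fold, 93.8% of 2-fold and 100% of 4-fold changes. In that simulation 13940 genes were unchanged, whereas 72.1% of the real genes were called. The adjusted p depends on that share, so these rates are not the sensitivity of the fit to the real data.

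The 10 genes, the 12 lists and the tests were chosen with earlier results of these data known. From each list the 3 genes per direction with the lowest adjusted p were named, or the gene with the highest mean where none passed. Higd1b, Kcnj11, Abcc8, Olig1 and Nkx2-2 were named after their values were seen. So were Ptprz1, Krt14, Krt18, Krt5, Epcam, Trp63, Grhl3, Pax6, Sox1, Neurod1, Dcx and Hes5. Every list gene had a row, Fer and Adgre1 under older symbols. Libraries of a group differed by more than sampling noise (chi-square per degree of freedom 3.62 to 18.9). Leaving aside 4477 genes at 0 in all libraries, all rows name a gene. One result of the lists is not reported here.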

Additional observations from a re-analysis of the deposited data

Results flagged for a closer look

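In 8 of 130 groups of 4 libraries checked, 1 library lay far from the other 3, where chance gives about 1 in 20. The measure is the gap to the nearest other library over the range of the group. Pdgfa in EMM replicate 2, at 132 against 101 to 105, had a gap of 0.875. In the same library Gucy1b3 was low at 154 against 199 to 208 (0.832). Dll4 was high in EMM replicate 3, at 171 against 52.4 to 64.6 (0.897). In SOM replicate 4, Vegfa was high at 2967 against 2625 to 2674 (0.857), Vegfb low at 1547 against 1720 to 1739 (0.900), and Pf4 low at 243 against 306 to 319 (0.838). Rgs16 was low in SOM replicate 1, at 199 against 245 to 248.9 (0.920). Olig2 had its single EMM read in replicate 1, which gives a gap of 1 with no meaning beyond that read.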

How the results depend on the processing

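The 7 genes higher in EMM kept that direction and an adjusted p below 0.05 in every alternative in which they were tested, with the highest adjusted p at 0.0195 for Rgs5. The count was 6 with a filter at 50, where Pdgfd was not tested. The log2 difference of Cspg4 was 0.33 with limma-voom (adjusted p = 0.0633) and 0.16 when EMM replicates 2 and 3 were left out with SOM replicate 4 (0.281), and 0.22 to 0.46 with each library left out. The count higher in SOM was then 0 with limma-voom, 0 without these 3 libraries and 0 to 1 with each left out. With a filter at 50, 7 of 11 mural genes were higher in EMM because fewer were tested. Of 360 recomputed counts for the lists other than PDGF signalling and mural genes, 338 stayed within 1.5 times, 11 rose and 11 fell.

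For the ratios, the exact permutation test of 4 against 3 libraries can give p = 0.0286 at best, and that of 2 against 3 p = 0.1. With each library left out, the log2 difference was -2.71 to -1.83 for Rgs5 to Pdgfrb, 0.22 to 0.38 for Pdgfb to Cdh5, -2.93 to -2.06 for Rgs5 to Cdh5, -1.02 to -0.68 for Kcnj8 to Abcc9 and -0.01 to 0.12 for Pdgfra to Pdgfrb. The Pdgfra to Pdgfrb difference changed sign, to -0.011, without EMM replicate 3. With Pecam1 in place of Cdh5, an alternative chosen after seeing the data, the Pdgfb ratio reversed to -0.14. With EMM replicates 2 and 3 and SOM 4 left out the first 4 were -2.74, 0.44, -2.98 and -0.80.

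Same-numbered libraries deviated together with correlations of -0.02 to 0.13, the own number being highest for 2 of 4, so the data do not pair them. The labels leave unstated whether equal numbers mean shared embryos. The replicate block left 7 of the 10 genes higher in EMM and 1 in SOM. The ratio differences under the replicate block (-2.27, 0.33, -2.50 and -0.90) are the same by arithmetic, since each number occurs once in each group, and are no check. The exact permutation p was 0.125, the smallest that 4 pairs can give. Rgs5 in SOM (140 reads over 4 libraries), Pdgfd and Kcnj8 in SOM (210 reads) are the values most limited by depth.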
